A study of Mus musculus with 48 samples.

Results

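The change from splenic monocytes to pre-RPMs, the F4/80lo cells that precede red pulp macrophages (RPMs), was measured by RNA-seq in WT mice. The 4 libraries labelled WT monocyte and the 4 labelled WT pre-RPM were taken, 8 of the 24 RNA-seq libraries and of the 48 samples of the study. All 8 came from spleens of untreated male WT mice on the Balb/c background, 10 weeks old, and each mouse gave 1 library per cell type. Monocytes were sorted as Ly6Glo CD11bhi F4/80- cells and pre-RPMs as Ly6Glo CD11bhi F4/80lo cells, so F4/80 (encoded by *Adgre1*) set the groups apart by design. The labels of these libraries name no marker of NK cells, T cells, or eosinophils in the sort. The study's flow cytometry of the same populations was gated on NK1.1low cells of low side scatter. Whether the sort used this gate is not given in the sources used here. How far it would remove NK cells or eosinophils from spleens of the Balb/c background was not tested. WT RPMs (Ly6Glo CD11blo/- F4/80hi) of the same 4 mice, and monocytes and pre-RPMs of 4 mice labelled *Il1rl1*-/- (also male, Balb/c background, 10 weeks old), are used below only to place the change.

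Blood monocytes that enter the spleen can become RPMs, the macrophages that take up aged red blood cells and return their iron to the circulation. Heme from the engulfed cells releases the repression of *Spic* by BACH1, and the transcription factor SPIC then drives genes of the RPM program. Pre-RPMs are the intermediate: they keep the high CD11b of monocytes and begin to show F4/80. Since the libraries are bulk RNA of sorted cells, fewer cells of a type and less RNA per cell cannot be told apart.

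The libraries labelled WT held between 4212726 and 6559454 counts in monocytes and between 4363639 and 5105725 in pre-RPMs, and a single ribosomal-repeat gene, *Gm42418*, took between 25.2% and 38.8% of them. CPM, the unit of the levels below, is the count scaled to the library total after TMM normalization. In these libraries, 3 counts were worth between 0.456 and 0.693 CPM in monocytes and between 0.704 and 0.783 CPM in pre-RPMs. *Il1rl1*, the gene targeted in the mutant, gave 28, 19, 12, and 13 counts in WT monocytes and 18, 15, 13, and 24 in WT pre-RPMs of mice 1, 2, 3, and 4. It did not pass the test between these groups (log2 fold change 0.41, SE 0.31, edgeR's adjusted p = 0.384). Its counts are higher in the monocyte and pre-RPM libraries labelled *Il1rl1*-/-. Counts summed over a whole gene do not show whether its product is lost, so this gene could not be used to check the genotype labels. Genotypes are therefore named by their labels throughout. The labels of the cell types were checked against their markers. *Itgam*, which encodes CD11b, was at 77.7, 58.1, 77.6, and 82.0 CPM in monocytes and 89.0, 59.0, 78.8, and 65.9 CPM in pre-RPMs, the groups overlapping. *Ly6g*, the neutrophil marker of the gate, had 70, 31, 48, and 11 counts in monocytes but 1, 0, 4, and 0 in pre-RPMs, and it was too low to be tested.

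The monocytes of mouse 3 lay closest to the pre-RPMs across genes, and the pre-RPMs of mouse 3 differed from their group in some genes. On the first principal component of the 8 libraries (59.3% of the variance), monocytes of mice 1 and 2 lay at -53.5 and -56.5 and those of mouse 4 at -21.2, whereas monocytes of mouse 3 lay at -2.03 and the 4 pre-RPM libraries between 32.0 and 34.9. Across genes, the monocyte library of mouse 3 had a mean correlation of 0.946 with the pre-RPM libraries and of 0.937 with the other monocyte libraries. It was the monocyte library nearest the pre-RPMs for 455 of the 642 genes that rose and for 741 of the 982 that fell. Among genes that were not called it was the nearest for 2283 of 4972 with an estimate above 0 and for 1998 of 4495 with one below 0. The pre-RPM library of mouse 3, and less so that of mouse 4, was high in genes of red cells and of mature RPMs. *Hbb-bs*, a beta globin of red cells, had 23, 14, 1100, and 216 counts in the pre-RPMs of mice 1 to 4 and between 10 and 58 in monocytes.

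Of 11091 genes tested with edgeR's quasi-likelihood test, 642 (5.79%) rose and 982 (8.85%) fell from monocytes to pre-RPMs at an adjusted p under 0.05. Counts of called list members below are to be read beside these shares of all genes. The falls were the larger changes: 593 genes fell and 216 rose by more than 1 on the log2 scale, and the median log2 fold change was -1.21 among the falls, 0.87 among the rises, and 0.01 over all genes tested. At the thresholds the study set between cell types (a change of more than 1 on the log2 scale in either direction, at an adjusted p under 0.01), 35 genes (0.316%) were higher and 361 (3.25%) lower, and with the mouse as a block 90 were higher and 414 lower. With each library left out these stricter counts ran from 7 to 405 and from 160 to 636, the highest of both without the monocytes of mouse 3. The 2 groups did not overlap for 569 of the 642 rises and 859 of the 982 falls, against 9.27% and 11.5% of all genes tested that were apart in each direction.

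These counts depended on single libraries, the rises more than the falls. Without the monocytes of mouse 3, 1503 genes were higher and 1445 lower. Leaving out the monocytes of mouse 1 gave 191 higher and 561 lower, and leaving out those of mouse 2 gave 307 and 644. Leaving out the pre-RPMs of mouse 1, 2, 3, or 4 gave 250, 250, 346, or 190 genes higher and 639, 651, 770, or 631 lower. A gene called here as higher can therefore miss the threshold with 1 library fewer, and this is stated at the genes concerned.

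**Figure D1:**
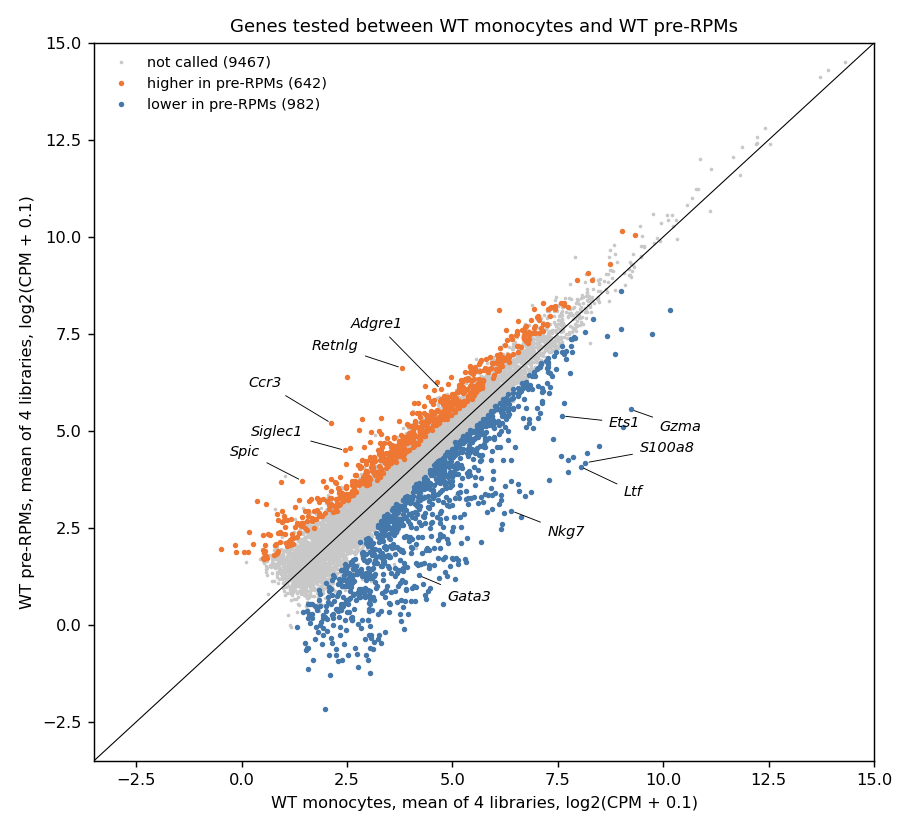
Each point is 1 of the 11091 genes tested, at its mean log2(CPM + 0.1) over the 4 WT monocyte libraries (x axis) and the 4 WT pre-RPM libraries (y axis), with the diagonal as the line of equal level. The 642 genes higher in pre-RPMs are orange and the 982 lower are blue, and the blue points reach farther from the diagonal than the orange ones.

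*Spic*, the transcription factor of the RPM program, was among the 10 largest rises. Here and below, the largest rises and falls are those of called genes whose groups were apart and whose mean was at least 1 log2 CPM. *Spic* lies on chromosome 10 from 88674772 to 88685015 on the minus strand (GRCm38). It was at 2.47, 0.80, 4.85, and 2.28 CPM in the monocytes of mice 1 to 4 and at 13.1, 8.35, 14.3, and 16.3 CPM in their pre-RPMs. Every pre-RPM library was above every monocyte library, and the monocytes of mouse 3 were the highest of their group. The rise of *Spic* was 2.35 on the log2 scale (SE 0.37, edgeR's adjusted p = 0.00229) and ranged from 2.08 to 2.76 with each library left out. In WT RPMs the mean was 300.2 CPM, so the level of *Spic* in pre-RPMs was still far below that of mature cells.

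Of the 34 genes listed for RPMs and iron recycling, 27 were tested, 12 rose and none fell, against 5.79% and 8.85% of all genes. The median log2 fold change was 0.96 against 0.01 over all genes. *Hmox1*, the heme oxygenase that opens the heme ring and frees its iron, was at 4.16, 4.77, 12.9, and 11.1 CPM in monocytes and 18.1, 13.8, 65.6, and 26.6 CPM in pre-RPMs. The groups did not overlap, and the pre-RPMs of mouse 3 were well above the others. *Hmox1* rose by 1.92 on the log2 scale (SE 0.49, edgeR's adjusted p = 0.0263). The value was 1.27 (adjusted p = 0.0627) without the pre-RPMs of mouse 3, and 1.68 (adjusted p = 0.0712), 1.74 (adjusted p = 0.0585), and 1.99 (adjusted p = 0.056) without the monocytes of mouse 1, the monocytes of mouse 2, and the pre-RPMs of mouse 4. *Adgre1*, whose protein defined the gates, went from 14.7, 11.3, 47.8, and 31.5 CPM to 81.5, 64.5, 66.3, and 56.6 CPM. Mice 3 and 4 had the highest monocyte values of *Adgre1*, and no pre-RPM library fell below them (log2 fold change 1.36, SE 0.36, edgeR's adjusted p = 0.0283). The adjusted p was 0.0699 without the monocytes of mouse 1 and between 0.0548 and 0.0754 without any 1 of the pre-RPM libraries.

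*Axl*, a receptor tyrosine kinase by which macrophages take up apoptotic cells, was at 4.47, 3.98, 10.4, and 8.37 CPM in monocytes and 16, 15.4, 64.1, and 33.1 CPM in pre-RPMs (log2 fold change 2.24, SE 0.46, edgeR's adjusted p = 0.0104). The pre-RPMs of mouse 3 were the highest here as well, and without them the log2 fold change of *Axl* was 1.68. *Siglec1*, the sialic acid receptor CD169, was at 1.39, 1.19, 9.70, and 9.28 CPM in monocytes and 17.8, 18.8, 27.5, and 25.7 CPM in pre-RPMs. Monocytes thus split into mice 1 and 2, with *Siglec1* near the limit of counting, and mice 3 and 4, and all pre-RPM libraries were higher. It rose by 2.07 on the log2 scale (SE 0.50, edgeR's adjusted p = 0.0204), with an adjusted p of 0.0529 and 0.0593 without the pre-RPMs of mice 3 and 4. *C1qa*, a subunit of complement C1q made by tissue macrophages, rose by 1.91 on the log2 scale (SE 0.52, edgeR's adjusted p = 0.0329) and by 1.11 (adjusted p = 0.0635) without the pre-RPMs of mouse 3. The call for *C1qa* was also lost, at an adjusted p between 0.0594 and 0.0801, without the monocytes of mouse 1, 2, or 4 or the pre-RPMs of mouse 1.

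Further rises of the list were in *Maf*, a macrophage transcription factor, *Nr1h3*, which encodes the sterol receptor LXR alpha, *Slc11a1*, an iron transporter of the phagosome, *Ftl1*, the ferritin light chain, and *Hpgd*. Their log2 fold changes were 0.98, 0.99, 1.08, 0.71, and 0.83, with edgeR's adjusted p between 0.0277 and 0.048. The call for *Nr1h3* was lost without the monocytes of mouse 1 or 2 or any pre-RPM library (adjusted p between 0.0674 and 0.0934). Several defining RPM genes did not pass the test. *Vcam1*, an adhesion molecule of RPMs, was at 2.78, 2.19, 0.92, and 1.83 CPM in monocytes and 2.35, 2.09, 42.8, and 9.11 CPM in pre-RPMs. Only the pre-RPMs of mice 3 and 4 were above the monocytes (log2 fold change 2.79, SE 0.86, edgeR's adjusted p = 0.0504). The log2 fold change of *Vcam1* was 1.19 (adjusted p = 0.182) without the pre-RPMs of mouse 3, and the gene passed without those of mouse 1 or 2 (adjusted p = 0.039 each) and with DESeq2 (adjusted p = 0.0412). *Slc40a1*, the iron exporter ferroportin, followed the same mice, with 9.63, 6.27, 28.8, and 19.7 CPM in pre-RPMs against 9.10, 14.7, 4.16, and 4.72 CPM in monocytes (log2 fold change 0.96, SE 0.47, edgeR's adjusted p = 0.185). *Mertk*, an engulfment receptor that was too low to be tested, had 1, 3, 22, and 8 counts in pre-RPMs and between 1 and 4 in monocytes.

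*Treml4*, a receptor of RPMs and nonclassical monocytes, overlapped between the groups, at 26.1, 20.3, 58.6, and 35.3 CPM and at 46.7, 44.9, 53.1, and 39.6 CPM (log2 fold change 0.40, SE 0.27, edgeR's adjusted p = 0.328). It passed without the monocytes of mouse 3, at 0.76 (adjusted p = 0.00862). *Bach1*, the heme-sensing repressor of *Spic*, was at 63.6, 45.5, 133, and 117 CPM in monocytes and 160, 140, 171, and 152 CPM in pre-RPMs. Although no pre-RPM library was below a monocyte library, *Bach1* missed the threshold (log2 fold change 0.79, SE 0.28, edgeR's adjusted p = 0.0737). It passed with the mouse as a block (0.91, adjusted p = 0.0233) and without the monocytes of mouse 3 (1.05, adjusted p = 0.00903).

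The summed level of the RPM and iron-recycling list was 543, 507.3, 848, and 688 CPM in monocytes, 1027, 894, 1477, and 1027 CPM in pre-RPMs, and between 12956 and 17192 CPM in RPMs. The erythroid list moved beside it, at 9.41, 17.3, 28.9, and 21.9 CPM in monocytes, 25.4, 17.5, 603, and 102 CPM in pre-RPMs, and between 1385 and 22087 CPM in RPMs. Of its 14 genes, 4 were tested and 2 rose, *Hbb-bs* (log2 fold change 3.98) and *Slc4a1*, the anion exchanger of red cells (2.8), both with overlapping groups. No defining erythroid gene was at 0 in all 8 libraries. Without the pre-RPMs of mouse 3, 2 of the RPM genes and 0 of the erythroid genes were higher. The RPM genes called higher were 3, 5, and 15 without the monocytes of mouse 1, 2, and 3, and 7 and 3 without the pre-RPMs of mouse 1 and 4. The erythroid genes were 0 or 1 without the monocytes of mouse 1, 2, or 4 or the pre-RPMs of mouse 4, and 4 without the pre-RPMs of mouse 1 or 2. Several RPM genes, among them *Hmox1*, *Axl*, *Siglec1*, *Vcam1*, and *Slc40a1*, were highest in the pre-RPMs of mouse 3, whereas *Spic* and *Adgre1* were not. The part of red cell or mature RPM material in the rise of RPM genes was not tested.

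**Figure D2:**
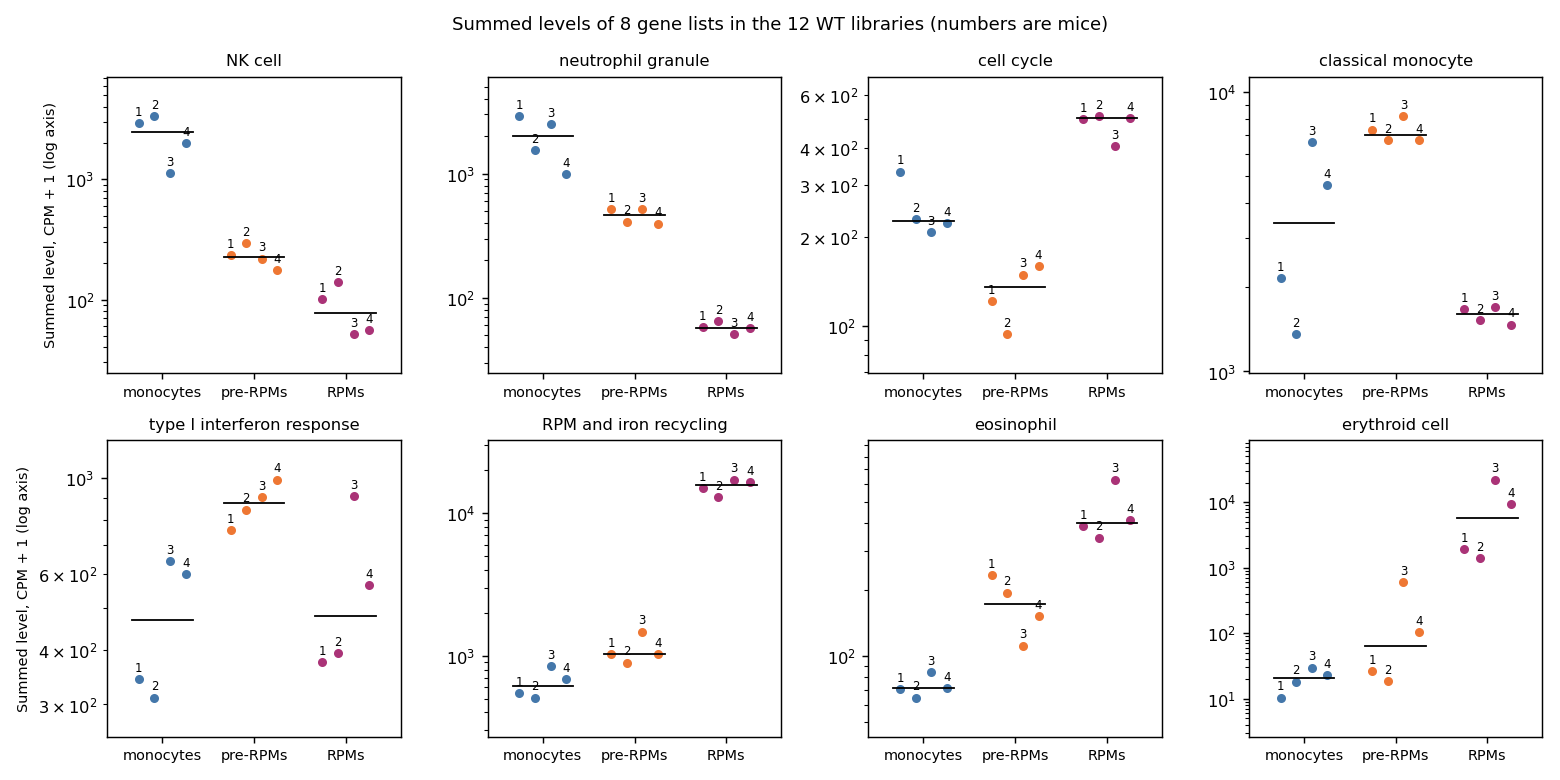
Summed level of 8 gene lists in each WT library, in CPM + 1 on a log axis, for monocytes, pre-RPMs, and RPMs, with the mouse number above each point and a line at the group median. NK genes were between 1121 and 3348 CPM in monocytes and between 176 and 296 CPM in pre-RPMs, whereas RPM and interferon genes were higher in every pre-RPM library than in every monocyte library.

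Type I interferon response genes leaned upward as a group. These genes encode antiviral proteins and are switched on by interferon through the interferon-stimulated response element. All 28 listed were tested, 10 rose, none fell, and all 28 had an estimate above 0, with a median log2 fold change of 0.99. The groups did not overlap for 18 of the 28, with 9.27% of all genes tested apart in that direction. Their summed level was 342, 310, 642, and 598 CPM in monocytes and 758, 845, 902, and 991 CPM in pre-RPMs. Mice 3 and 4 again had the higher monocyte values, and the lowest pre-RPM library was above all 4 of them.

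The largest of these rises were in *Oas2*, an RNA sensor that makes oligoadenylate, *Rsad2*, which encodes viperin, and *Ifit3*, which binds foreign RNA. *Oas2* was at 5.24, 2.78, 14.1, and 15.5 CPM in monocytes and 23.9, 34.2, 18.8, and 50.1 CPM in pre-RPMs (log2 fold change 1.76, SE 0.45, edgeR's adjusted p = 0.0259). *Rsad2* went from 0.46, 3.78, 5.54, and 7.30 CPM to 11.7, 9.66, 18.3, and 14.4 CPM (log2 fold change 1.66, SE 0.47, edgeR's adjusted p = 0.0391). *Ifit3* went from 1.54, 0.40, 5.08, and 5.17 CPM to 6.57, 10.4, 10.5, and 10.1 CPM (log2 fold change 1.62, SE 0.48, edgeR's adjusted p = 0.0457). For all of them the groups stayed apart, with monocytes of mice 3 and 4 nearest to the pre-RPMs. The calls were fragile: *Oas2* was lost without the monocytes of mouse 1 or the pre-RPMs of mouse 2 or 4 (adjusted p between 0.0631 and 0.0806), *Rsad2* without the monocytes of mouse 2 or any pre-RPM library (0.0604 to 0.0981), and *Ifit3* without the monocytes of mouse 1 or 2 or any pre-RPM library (0.0529 to 0.114). Without the monocytes of mouse 3, 25 of the 28 genes were higher. Without the monocytes of mouse 1 or 2 there were 3 or 5, and without the pre-RPMs of mouse 1, 2, 3, or 4 there were 6, 2, 6, or 1. The mouse as a block gave 19.

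The promoters of these interferon genes are shown because all 28 estimates of this response were above 0, although 18 of the genes were not called. Of the 28, 20 matched RefSeq promoters of GRCm38.p6 (250 bases before to 50 after the transcription start, 24 promoters), and 10 of these promoters (41.7%) held the core of the interferon-stimulated response element, which reads GAAA, any 2 bases, and GAAA again on either strand, a motif searched after the rises were seen. Over all 32851 promoters of the table, 3.44% held it. The shares were 3.345% for genes tested, 4.71% for genes that rose, and 2.41% for genes that fell. The list was made of known interferon response genes, so its own share does not bear on the change between the groups. The promoters of *Ifit3* (chr19:34583279-34583578, plus strand) and *Rsad2* (chr12:26456403-26456702, minus strand) follow, with the matches in capitals, which start 156 and 122 bases before the transcription start of *Ifit3* and 120 bases before that of *Rsad2*.
Ifit3: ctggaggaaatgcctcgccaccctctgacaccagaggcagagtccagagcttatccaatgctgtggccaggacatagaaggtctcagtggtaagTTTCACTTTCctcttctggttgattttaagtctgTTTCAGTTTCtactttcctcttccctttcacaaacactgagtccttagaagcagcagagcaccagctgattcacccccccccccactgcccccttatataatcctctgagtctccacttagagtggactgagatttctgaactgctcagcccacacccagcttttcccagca
Rsad2: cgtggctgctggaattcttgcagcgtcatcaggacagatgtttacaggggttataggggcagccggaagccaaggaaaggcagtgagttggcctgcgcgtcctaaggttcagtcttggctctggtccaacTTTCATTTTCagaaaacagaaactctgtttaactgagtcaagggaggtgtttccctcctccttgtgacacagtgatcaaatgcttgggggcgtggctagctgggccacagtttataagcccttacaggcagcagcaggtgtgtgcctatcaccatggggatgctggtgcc
A match shows only that these letters lie in the window.

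The next list held receptors by which phagocytes recognize antibody, lipoprotein, and dying cells. Of 27 listed, 20 were tested, 7 rose, and none fell, against 5.79% and 8.85% of all genes. The median log2 fold change was 0.98. Besides *Axl*, the rises were in *Cd93*, *Fcgr1*, *Fcgr2b*, *Fcgr3*, *Scarb1*, and *Cd300a*. *Cd93*, a C-type lectin-like receptor of myeloid cells, was at 8.02, 7.16, 28.4, and 23.6 CPM in monocytes and 57.1, 37.9, 60.3, and 55.6 CPM in pre-RPMs (log2 fold change 1.66, SE 0.37, edgeR's adjusted p = 0.0155), and kept its call with each library left out. *Fcgr1*, the high-affinity IgG receptor CD64, was at 1.70, 1.39, 14.5, and 11.9 CPM in monocytes and 23.9, 22.2, 26, and 23.0 CPM in pre-RPMs. Monocytes of mice 1 and 2 had few reads of *Fcgr1*, while the pre-RPM libraries were close to each other and above all monocytes. It rose by 1.71 on the log2 scale (SE 0.52, edgeR's adjusted p = 0.0494), a call that was lost without the monocytes of mouse 1 or 2 or any pre-RPM library (adjusted p between 0.0732 and 0.0993) and with DESeq2 (adjusted p = 0.132). *Fcgr2b*, the inhibitory IgG receptor, and *Fcgr3* had log2 fold changes of 1.11 (adjusted p = 0.00138) and 1.07 (adjusted p = 0.0176) with edgeR. For the list, 14 genes were higher without the monocytes of mouse 3, 12 with the mouse as a block, 4 without the monocytes of mouse 1 or the pre-RPMs of mouse 2, and 3 without the pre-RPMs of mouse 4.

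Toll-like receptor and inflammasome genes had 4 rises and 1 fall, in *Pycard*, among 22 tested, against 5.79% and 8.85% of all genes. The fall in *Pycard*, the adaptor ASC, by 0.52 on the log2 scale (edgeR's adjusted p = 0.0377), was lost with the mouse as a block (adjusted p = 0.0614) and without the monocytes of mouse 2 or 4 or any pre-RPM library (0.0605 to 0.0957). *Mefv*, which encodes pyrin, a sensor that assembles an inflammasome, had the largest rise, from 11.3, 6.96, 38.1, and 29.4 CPM to 55.4, 60.3, 50.1, and 67.1 CPM. All pre-RPM libraries were above all monocyte libraries (log2 fold change 1.45, SE 0.40, edgeR's adjusted p = 0.0332). It was lost without the monocytes of mouse 1 or any pre-RPM library, at an adjusted p between 0.0557 and 0.0829. For the list, 16 genes were higher without the monocytes of mouse 3, 9 with the mouse as a block, and between 0 and 1 without the monocytes of mouse 1 or 2 or any of the pre-RPM libraries. Lysosomal genes had 5 rises and 1 fall among 29 tested, against the same shares of 5.79% and 8.85%. The fall was in *Ctsd*, the aspartic protease cathepsin D, from 129, 150, 69.5, and 100.3 CPM to 43.4, 32.9, 38.5, and 30.9 CPM (log2 fold change -1.63, SE 0.22, edgeR's adjusted p = 0.00106). The 5 rises, in *Mitf*, *Ctsh*, *Man2b1*, *Neu1*, and *Ctse*, were between 0.45 and 1.04 on the log2 scale. Those of *Mitf* and *Man2b1* were lost with any library but the monocytes of mouse 3 left out (adjusted p between 0.0742 and 0.119 and between 0.052 and 0.0839). Without the monocytes of mouse 3 there were 24 rises, with the block 15, and with any other library left out between 1 and 3.

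Markers of classical monocytes were in both groups and, as a sum, higher in pre-RPMs. The 15 genes summed to 2163, 1358, 6593, and 4643 CPM in monocytes and to 7332, 6722, 8172, and 6706 CPM in pre-RPMs. Monocytes of mice 1 and 2 held the least, and those of mouse 3 were just under the lowest pre-RPM library. *Ccr2*, the receptor by which monocytes leave the marrow, was at 251, 148, 429, and 351 CPM in monocytes and 599, 480, 572, and 504 CPM in pre-RPMs (log2 fold change 0.87, SE 0.26, edgeR's adjusted p = 0.0459). *Plac8* was at 46.3, 40.6, 179, and 108 CPM and at 203, 240, 236, and 229 CPM (log2 fold change 1.28, SE 0.38, edgeR's adjusted p = 0.0452). Both genes had groups that were apart, and both were lost with any library other than the monocytes of mouse 3 left out, at an adjusted p between 0.0545 and 0.114 for *Ccr2* and between 0.0706 and 0.101 for *Plac8*. Of the 15, 10 were higher without the monocytes of mouse 3 and 6 with the block. *Chil3* fell (log2 fold change -1.08, SE 0.31, edgeR's adjusted p = 0.0418), with overlapping groups and with calls lost at an adjusted p between 0.0525 and 0.112 without the monocytes of mouse 1 or any pre-RPM library. *Ly6c2* did not pass (log2 fold change 0.11, SE 0.17, edgeR's adjusted p = 0.702).

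*Csf1r*, the growth factor receptor of the lineage, was at 116, 111, 382, and 274 CPM in monocytes and 459, 347, 557, and 389 CPM in pre-RPMs. The monocytes of mouse 3 overlapped the pre-RPMs, and *Csf1r* missed the threshold (log2 fold change 0.98, SE 0.35, edgeR's adjusted p = 0.0811). It passed with the mouse as a block (1.16, adjusted p = 0.0164) and without the monocytes of mouse 3 (1.39, adjusted p = 0.00499). *Cx3cr1* and *Nr4a1*, genes of nonclassical monocytes, overlapped likewise, with log2 fold changes of 0.76 (edgeR's adjusted p = 0.125) and 0.47 (adjusted p = 0.29). For *Cx3cr1*, the block gave 0.90 (adjusted p = 0.0317), and leaving out the monocytes of mouse 3 gave 1.16 (adjusted p = 0.00486). Leaving out that library also brought *Nr4a1* to 0.81 (adjusted p = 0.0238). Of the 14 genes tested for nonclassical monocytes, 1 fell, *Spn*, which encodes CD43. Without the pre-RPMs of mouse 2 there were 4 falls, without the monocytes of mouse 3 there were 4 rises, and with the block 2 rises. *Spn* went from 550, 611, 410, and 477 CPM to 210, 219, 203, and 154 CPM (log2 fold change -1.39, SE 0.17, edgeR's adjusted p = 0.00052).

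Where the groups did not overlap, the largest rise was in *Ccr3*, the eotaxin receptor, which is best known from eosinophils. It lies on chromosome 9 from 124021972 to 124031689 on the plus strand (GRCm38). *Ccr3* was at 3.70, 1.39, 4.85, and 7.15 CPM in monocytes and 53.1, 40.2, 20, and 32.9 CPM in pre-RPMs. No monocyte library reached the lowest pre-RPM library, that of mouse 3. It rose by 3.06 on the log2 scale (SE 0.38, edgeR's adjusted p = 0.000659), and by between 2.79 and 3.46 with each library left out. In WT RPMs, *Ccr3* was higher again, with a mean of 304 CPM.

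*Alox15*, a lipoxygenase of eosinophils and resident macrophages, was at 5.71, 3.98, 9.70, and 9.13 CPM in monocytes and 51.2, 46.0, 21.0, and 39.1 CPM in pre-RPMs (log2 fold change 2.47, SE 0.31, edgeR's adjusted p = 0.000721). *Retnlg*, a resistin-like secreted protein made by neutrophils, went from 8.18, 7.16, 18, and 21.9 CPM to 133, 130, 34.5, and 95.9 CPM (log2 fold change 2.83, SE 0.44, edgeR's adjusted p = 0.00222). *Mylk*, the myosin light chain kinase, went from 0.93, 0.60, 2.08, and 3.65 CPM to 19.0, 14.6, 5.01, and 12.7 CPM (log2 fold change 2.78, SE 0.50, edgeR's adjusted p = 0.00467). In all of these genes, the pre-RPMs of mouse 3 were the lowest of their group and those of mouse 1 the highest, whereas in *Hmox1* and *Axl* those of mouse 3 were the highest. *Inpp5j*, an inositol phosphatase, had the same order of extremes (log2 fold change 2.6, SE 0.46, edgeR's adjusted p = 0.0045).

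Unlike *Ccr3*, these genes were low in RPMs, where the means were 1.27 CPM for *Alox15*, 1.92 CPM for *Retnlg*, 1.95 CPM for *Mylk*, and 0.318 CPM for *Inpp5j*. *Siglecf*, an inhibitory receptor of eosinophils, was at 0.93, 0.20, 2.08, and 0.91 CPM in monocytes and 10.1, 7.05, 1.25, and 2.40 CPM in pre-RPMs (log2 fold change 2.36, SE 0.67, edgeR's adjusted p = 0.0376). Its groups overlapped through the pre-RPMs of mouse 3, and the call for *Siglecf* was lost without the monocytes of mouse 1, 2, or 4 or the pre-RPMs of mouse 1 or 2 (adjusted p between 0.0775 and 0.118). Of the 12 eosinophil markers, 6 were tested, and *Ccr3*, *Alox15*, and *Siglecf* rose. The list summed to 69.9, 63.8, 83.6, and 70.8 CPM in monocytes, 232, 193, 111, and 150 CPM in pre-RPMs, and between 343 and 628 CPM in RPMs. The granule genes that define eosinophils were low: *Epx* had at most 1 count in a monocyte library and between 1 and 5 in pre-RPMs, *Prg3* between 1 and 8 in pre-RPMs, and *Prg2* overlapped (log2 fold change 0.75, edgeR's adjusted p = 0.302). Others were higher in pre-RPMs but too low to be tested: *Il5ra*, the receptor chain for IL-5, had between 2 and 7 counts in monocytes and between 4 and 33 in pre-RPMs, and *Ear6*, a granule ribonuclease, between 0 and 7 and between 9 and 29. Without the monocytes or the pre-RPMs of mouse 3, 5 genes of the list were higher. The part of eosinophils in these rises was not tested. *Gata1*, a transcription factor of eosinophils and red cells that was too low to be tested, had 4, 3, 3, and 3 counts in monocytes and 20, 12, 6, and 17 in pre-RPMs.

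*Ccr3* and *Siglecf* each have 1 match to the GATA core (AGATAA or TGATAA, either strand) in their RefSeq promoters, 2 of 3 eosinophil promoters that matched the table. The GATA core is common: 18.6% of all promoters of the table held it, 10.3% of those of genes tested, 10.9% for genes that rose, and 12.4% for genes that fell. The ETS core of PU.1 and SPIC, GAGGAAGT, was in 3.48% of promoters of genes tested, 4.71% for rises and 4.14% for falls. The promoter of *Ccr3*, which had the largest rise among genes with no overlap of the groups (chr9:124021721-124022020, plus strand), follows with its GATA core in capitals, which starts 30 bases before the transcription start.
Ccr3: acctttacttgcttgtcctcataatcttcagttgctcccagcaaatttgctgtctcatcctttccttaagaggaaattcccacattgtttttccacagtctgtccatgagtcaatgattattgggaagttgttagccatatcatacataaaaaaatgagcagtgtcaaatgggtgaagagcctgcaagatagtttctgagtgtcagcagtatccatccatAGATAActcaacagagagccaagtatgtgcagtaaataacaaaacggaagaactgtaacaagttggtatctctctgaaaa

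Other rises among the 10 largest were in *Gm1673* (log2 fold change 2.36, SE 0.46, edgeR's adjusted p = 0.00781) and *F830208F22Rik* (2.18, SE 0.49, adjusted p = 0.015), both at low counts, between 1 and 8 in every monocyte library. The second was lost without the pre-RPMs of mouse 2 (adjusted p = 0.0506). The coagulation factor gene *F5* rose from 12.3, 7.16, 33, and 29.1 CPM to 93.7, 74.4, 46.8, and 70.0 CPM (log2 fold change 1.81, SE 0.39, edgeR's adjusted p = 0.0123), the only rise among 9 coagulation genes tested, of which 7 were higher without the monocytes of mouse 3 and 3 with the block. The share of all genes tested that rose was 5.79%. Like *Alox15*, *F5* was lowest among pre-RPMs in mouse 3, and it too was low in RPMs (mean 1.88 CPM).

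**Figure D3:**
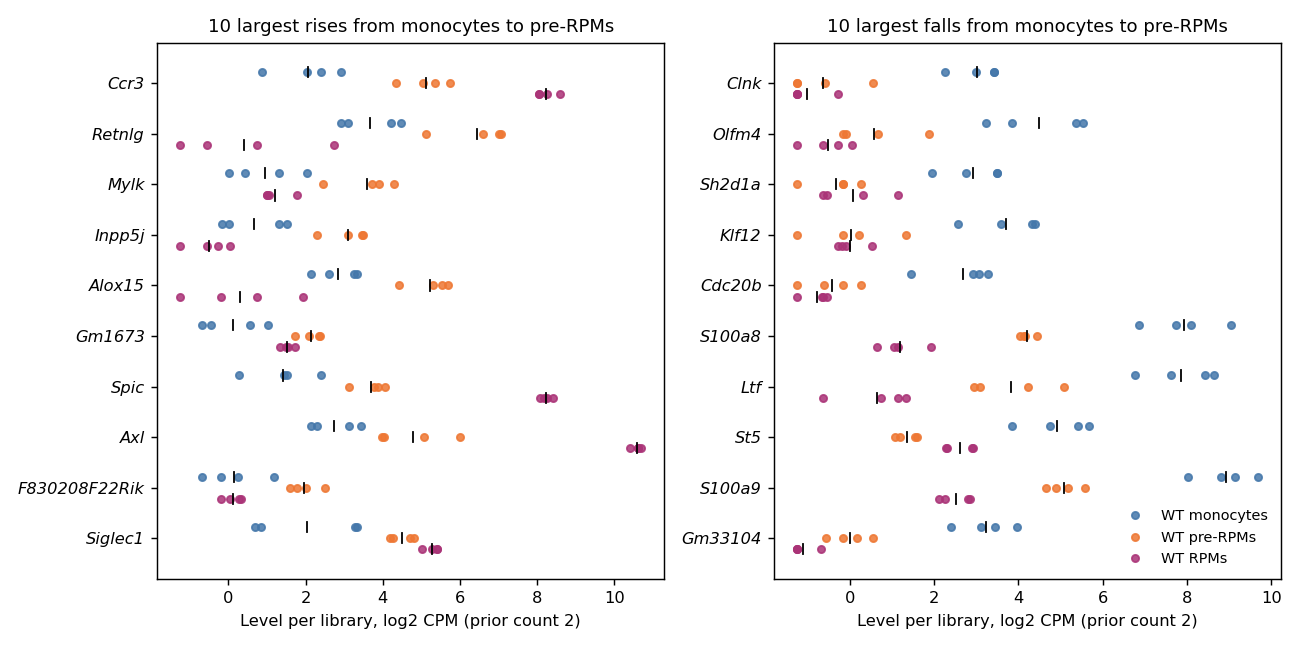
Level of the 10 genes with the largest rises (left) and the 10 with the largest falls (right) in each WT library, in log2 CPM (prior count 2), with monocytes in blue, pre-RPMs in orange, RPMs in purple, and a black tick at each group mean. *Ccr3*, *Spic*, and *Axl* were higher in RPMs than in pre-RPMs, whereas *Retnlg*, *Inpp5j*, and *Alox15* were at or below their monocyte level there.

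NK cell genes, the cytotoxic program of natural killer cells, fell as a group. All 19 tested of 22 listed fell, with a median log2 fold change of -3.52, and all 19 were apart between the groups (11.5% of all genes tested were apart in that direction). Summed over the list, the level was 2949, 3348, 1121, and 1999 CPM in monocytes and 233, 296, 219, and 176 CPM in pre-RPMs. Monocytes of mouse 3 had the lowest NK sum of their group, yet well above every pre-RPM library. *Prf1*, the pore-forming perforin, went from 244, 316, 111, and 183 CPM to 18.1, 20.1, 12.8, and 10.6 CPM (log2 fold change -3.80, SE 0.33, edgeR's adjusted p = 0.0002). *Ccl5*, a chemokine of cytotoxic lymphocytes, went from 397, 392, 138, and 237 CPM to 23.0, 26.1, 22, and 15.3 CPM (log2 fold change -3.75, SE 0.33, edgeR's adjusted p = 0.0002). *Klrb1c*, an NK receptor, fell by 3.75 on the log2 scale (SE 0.39, edgeR's adjusted p = 0.000364).

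Among the genes with the 10 largest falls, *Clnk*, an adaptor of immune receptor signaling, had 67, 52, 19, and 50 counts in monocytes and 0, 4, 0, and 1 in pre-RPMs (log2 fold change -4.63, SE 0.62, edgeR's adjusted p = 0.000906). *Sh2d1a*, which encodes the adaptor SAP of T and NK cells, had between 15 and 70 counts in monocytes and at most 3 in any pre-RPM library, and was at least 10.7-fold lower against the mean floor of 3 counts per library. *Klf12*, *Cdc20b*, *St5*, and *Gm33104* fell by 4.12, 4.11, 3.95, and 3.94 on the log2 scale. All of these held more reads in monocytes of mice 1 and 2 than in those of mouse 3, as the NK sum did. Of the NK list, *Klra4* and *Klra8*, both too low to be tested, were at 0 in all pre-RPM libraries, and no gene was at 0 in all 8. Between 19 and 20 genes of the list were lower with each library left out. The study's flow cytometry was gated on NK1.1low cells. How far such a gate removes NK cells on the Balb/c background, and the part of NK cells in the falls, were not tested.

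Of 45 transcription factors of myeloid and lymphoid cells tested, 15 fell, 7 rose, and 23 were not called. Of all genes tested, 8.85% fell and 5.79% rose. *Tbx21* and *Eomes*, the T-box factors of NK and effector T cells, had log2 fold changes of -3.6 (SE 0.35) and -3.44 (SE 0.37), with edgeR's adjusted p of 0.000311 and 0.000421. *Gata3*, a factor of T cells and innate lymphoid cells, was at 24.8, 24.1, 7.39, and 16.6 CPM in monocytes and 2.35, 1.83, 2.25, and 2.88 CPM in pre-RPMs (log2 fold change -2.97, SE 0.38, edgeR's adjusted p = 0.000766). *Ets1*, an ETS factor of lymphocytes, was at 227, 275, 107, and 166 CPM in monocytes and 46.3, 39.4, 48.8, and 32.1 CPM in pre-RPMs (log2 fold change -2.23, SE 0.26, edgeR's adjusted p = 0.00052). Both were lowest, within monocytes, in mouse 3, as the NK sum was. Further falls were in *Gfi1*, *Lef1*, *Ikzf3*, *Tcf7*, *Bach2*, *Zeb1*, *Myb*, *Id2*, *Runx3*, *Ikzf1*, and *Elf4* (-2.6 to -0.41). The rises included *Spic*, *Cebpa*, *Nr1h3*, *Maf*, *Batf3*, and *Cebpd* (0.54 to 2.35). With the block 12 factors were higher, without the monocytes of mouse 3 there were 17, and without the monocytes of mouse 1 or the pre-RPMs of mouse 1, 3, or 4 there were 3. *Cebpa*, which directs the granulocyte and monocyte lineages, was at 38.3, 36.4, 87.7, and 60.4 CPM in monocytes and 117, 96.1, 137, and 109 CPM in pre-RPMs (log2 fold change 1.04, SE 0.25, edgeR's adjusted p = 0.0198). Its groups were apart, and it was lost without the monocytes of mouse 1 or the pre-RPMs of mouse 1 or 3 (adjusted p between 0.0506 and 0.0525). *Gata2*, a factor of progenitors, mast cells, and basophils, overlapped (log2 fold change -0.30, SE 0.48, edgeR's adjusted p = 0.706). It was at 26.4, 19.5, 6.23, and 8.83 CPM in monocytes and 9.39, 4.70, 24, and 12.2 CPM in pre-RPMs.

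GIMAP GTPases, which support lymphocyte survival, fell as a family, 8 of 8 with a median of -2.61. *Gimap4* went from 124, 139, 42.0, and 79.1 CPM to 10.1, 13.3, 12.8, and 7.43 CPM (log2 fold change -3.15, SE 0.35, edgeR's adjusted p = 0.000457). T cell genes had 7 falls among 11 tested, led by *Trdc*, the constant region of the delta chain (log2 fold change -3.63, SE 0.43, edgeR's adjusted p = 0.00052), while *Cd28* and *Trbc1* fell by 2.38 and 2.22. The T cell genes lower were 4 without the monocytes of mouse 1 or the pre-RPMs of mouse 2, 3, or 4. The T cell list summed to between 51.7 and 170 CPM in monocytes and between 28.0 and 58.2 CPM in pre-RPMs, so its groups overlapped. Plasma cell genes had 5 falls among 7 tested, and *Jchain*, the joining chain of secreted antibody, fell by 1.88 (SE 0.16, edgeR's adjusted p = 0.0002). Of 14 B cell genes tested, *Igkc*, the kappa constant region, fell (log2 fold change -2.04, SE 0.19, edgeR's adjusted p = 0.000217), and *Bank1*, a B cell scaffold, rose (0.82, SE 0.18, adjusted p = 0.014). The plasma cell sum was between 555 and 728 CPM in monocytes and between 253 and 316 CPM in pre-RPMs, and the B cell sum between 1034 and 1927 CPM and between 457 and 610 CPM. The part of lymphocytes in these falls was not tested.

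Genes of neutrophil granules formed another such list. Of 22 listed, 18 were tested, 11 fell, and 1, *Retnlg*, rose, with a median log2 fold change of -2.87. *S100a8* and *S100a9* encode the subunits of calprotectin, which binds metals. *S100a8* went from 533, 215, 275, and 115 CPM to 16, 17.2, 21.3, and 17.5 CPM (log2 fold change -3.99, SE 0.40, edgeR's adjusted p = 0.000341). *S100a9* went from 821, 452, 568, and 261 CPM to 35.7, 29.2, 47.8, and 24.9 CPM (log2 fold change -3.94, SE 0.34, edgeR's adjusted p = 0.0002). *Ltf*, the iron-binding lactoferrin of secondary granules, went from 346, 196, 398, and 109 CPM to 18.3, 7.31, 33.3, and 8.15 CPM (log2 fold change -3.97, SE 0.51, edgeR's adjusted p = 0.000739). In these genes, monocytes of mouse 1 or 3 were highest and those of mouse 4 lowest, an order other than that of the NK genes.

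*Olfm4*, olfactomedin of a subset of neutrophils, fell by 4.32 on the log2 scale (SE 0.67, edgeR's adjusted p = 0.00217), from between 8.98 and 46.1 CPM to between 0.48 and 3.25 CPM. The neutrophil granule list summed to 2886, 1549, 2491, and 987 CPM in monocytes, 520, 410, 520, and 395 CPM in pre-RPMs, and between 50.0 and 63.7 CPM in RPMs. *Ly6g* itself followed, as given above, although the gate was Ly6Glo in both groups, and the part of neutrophils or their precursors in these falls was not tested.

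Genes of mast cells and basophils, dendritic cells, and platelets had fewer calls. Of 9 mast cell and basophil genes tested, *Cma1*, a chymase, fell by 3.6 on the log2 scale (SE 0.36, edgeR's adjusted p = 0.000311) and *Kit*, the receptor of stem cell factor, by 1.98 (SE 0.52, adjusted p = 0.0282). *Kit* was lost without the monocytes of mouse 1 or 2 or any pre-RPM library (adjusted p between 0.0571 and 0.0806). Among conventional dendritic cell genes, *Zbtb46*, a factor of that lineage, fell by 2.36 (SE 0.46, edgeR's adjusted p = 0.00787) and *Flt3* by 1.31 (SE 0.36, adjusted p = 0.0329), whereas *Batf3* rose by 0.90 (SE 0.18, adjusted p = 0.0101). *Flt3* overlapped between the groups and was lost without the monocytes of mouse 1 or 2 or the pre-RPMs of mouse 1, 3, or 4 (adjusted p between 0.066 and 0.0922). With the block, and without the monocytes of mouse 3, 6 dendritic cell genes were lower. None of the 5 plasmacytoid and 2 platelet genes tested was called.

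Cell cycle genes were lower in pre-RPMs. Of 34 listed, 20 were tested, 11 fell, and none rose, with a median log2 fold change of -0.97. *Mcm6*, a subunit of the replicative helicase, went from 19.1, 19.9, 9.70, and 15.4 CPM to 3.99, 2.35, 4.00, and 3.6 CPM (log2 fold change -2.20, SE 0.27, edgeR's adjusted p = 0.000563). *Ccna2*, the S-phase cyclin, went from 3.86, 3.38, 4.39, and 3.80 CPM to 0.94, 0.78, 1.75, and 0.72 CPM (log2 fold change -1.86, SE 0.32, edgeR's adjusted p = 0.00392), and *Kif11*, a spindle kinesin, fell by 1.89 (SE 0.41, adjusted p = 0.0134). The groups were apart for each of these. The list summed to 331, 229, 207, and 222 CPM in monocytes, 121, 92.9, 148, and 158 CPM in pre-RPMs, and between 404 and 508.3 CPM in RPMs, so the level in pre-RPMs was the lowest of the 3 cell types in these means. The count of falls was between 8 and 12 with each library left out.

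Immediate early genes had 5 falls and 1 rise among 20 tested, against 8.85% and 5.79% of all genes. There were 5 rises without the monocytes of mouse 3, 3 with the block, and 0 without the monocytes of mouse 1 or 4 or the pre-RPMs of mouse 1, 2, or 4. *Nr4a3*, an orphan nuclear receptor, and *Egr3* and *Egr1*, zinc finger factors, fell by 2.72, 2.03, and 1.5 on the log2 scale, with edgeR's adjusted p of 0.00362, 0.00465, and 0.00215. *Dusp1*, a phosphatase of MAP kinases, rose by 0.96 (SE 0.25, edgeR's adjusted p = 0.027), with overlapping groups, and was lost without the monocytes of mouse 1 or 4 or the pre-RPMs of mouse 1, 2, or 4 (adjusted p between 0.0643 and 0.0787). Of 12 inflammatory cytokine and NF-kB genes tested, 2 fell and 2 rose. There were 5 rises without the monocytes of mouse 3, 0 without the pre-RPMs of mouse 3, and 1 with any other library left out. *Ccl3* and *Ccl4*, chemokines also made by NK cells, had log2 fold changes of -2.13 (SE 0.38, edgeR's adjusted p = 0.00461) and -2.74 (SE 0.45, edgeR's adjusted p = 0.00295). *Il1rn*, the antagonist of the IL-1 receptor, and *Nfkb2* had log2 fold changes of 1.23 and 0.54, both with overlapping groups. *Il1rn* was lost without the monocytes of mouse 1, 2, or 4 or the pre-RPMs of mouse 1, 2, or 3 (adjusted p between 0.0589 and 0.099), and *Nfkb2* without the monocytes of mouse 1, 2, or 4 or the pre-RPMs of mouse 1, 3, or 4 (0.0588 to 0.0878).

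Receptors that guide migration had 3 rises and 3 falls among 14 tested, against 5.79% and 8.85% of all genes, and 5 of each without the monocytes of mouse 3. *Ptafr*, the receptor of platelet-activating factor, rose with *Ccr3* and *Ccr2* (log2 fold change 1.13, SE 0.22, edgeR's adjusted p = 0.00692). The sphingosine-1-phosphate receptor genes *S1pr4* and *S1pr5* fell by 1.74 and 1.55. Of 22 integrin and adhesion genes, 4 fell, among them *Itga2*, the alpha chain of a collagen receptor and an NK marker (-2.6, SE 0.30), *Selplg*, the ligand of selectins (-0.84, SE 0.17), and *Itgb1*, the beta 1 integrin chain (-0.64, SE 0.13). No gene of this list rose, but 4 were higher without the monocytes of mouse 3, 2 with the block, and 1 without the pre-RPMs of mouse 1 or 2. Antigen presentation by MHC class II had 2 rises among 10 tested, against 5.79% of all genes. *Ciita*, the master regulator of the class II genes, went from 60.2, 63.2, 51.9, and 50.1 CPM to 91.6, 92.9, 94.6, and 105 CPM (log2 fold change 0.76, SE 0.12, edgeR's adjusted p = 0.00211), with separate groups. *H2-DMa*, a chaperone of class II loading, rose by 0.64 (adjusted p = 0.0272), and it was lost without the monocytes of mouse 1, 2, or 4 or the pre-RPMs of mouse 1, 3, or 4 (adjusted p between 0.0588 and 0.0722).

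Ribosomal protein and oxidative phosphorylation genes moved little. Of 81 cytosolic ribosomal protein genes tested, 4 rose, with a median log2 fold change of 0.19, and of 76 nuclear genes of oxidative phosphorylation, 2 rose and 1 fell, with a median of 0.02. None of 7 mitochondrially encoded genes was called, and their log2 fold changes were between -0.14 and 0.14. Glycolysis had 1 rise and 3 falls among 20 tested. *Slc2a3*, a glucose transporter, fell by 1.40 (SE 0.30, edgeR's adjusted p = 0.0131), and *Pfkp*, the platelet phosphofructokinase, by 0.80 (SE 0.13, adjusted p = 0.00277). Sterol synthesis had 1 rise among 18, LXR targets 1 rise and 2 falls among 10, antioxidant genes 1 fall among 16, and complement 1 rise among 10. Each of these shares of rises or falls can be set against 5.79% and 8.85% of all genes tested. As a sum, LXR targets were higher in every pre-RPM library, although their median log2 fold change was 0.002. They summed to 392, 316, 672, and 564 CPM in monocytes and 1041, 786, 1062, and 826 CPM in pre-RPMs. Antioxidant genes summed to between 516 and 940 CPM and between 917 and 1029 CPM, so their groups overlapped. Without the monocytes of mouse 3, the rises were 13 for ribosomal proteins, 6 for oxidative phosphorylation, 6 for antioxidant genes, and 3 each for glycolysis, complement, and LXR targets, and with any other library left out between 0 and 4. *Mylip*, which marks the LDL receptor for degradation, had the largest change among the called LXR targets, falling by 1.5 (SE 0.21, edgeR's adjusted p = 0.00124). The highest log2 fold change of that list, 1.56, was in a gene that was not called.

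**Figure D4:**
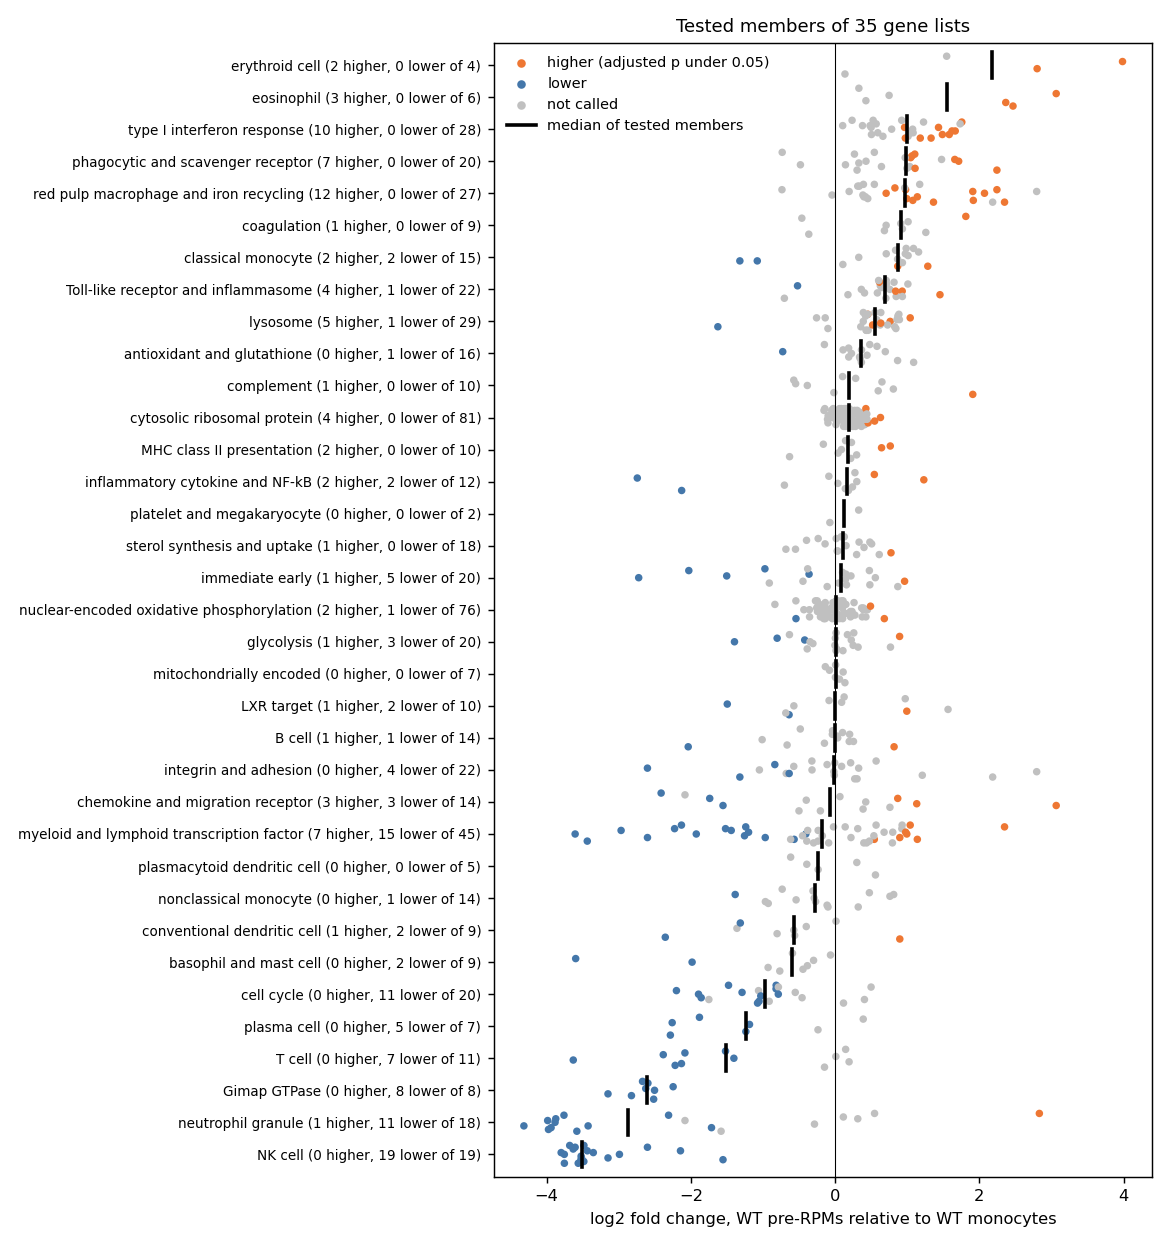
Log2 fold change in WT pre-RPMs relative to WT monocytes of every tested member of 35 gene lists, ordered by the list median (black bar), with genes higher in orange, lower in blue, and not called in grey. NK, neutrophil granule, and GIMAP genes lie between -4.32 and -1.55 except for 5 neutrophil genes, while interferon, phagocytic, and RPM genes have medians between 0.96 and 0.99.

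The genes that changed went different ways in RPMs. Of the 642 rises, the mean CPM in WT RPMs was above that of pre-RPMs for 209, between monocytes and pre-RPMs for 182, and at or below monocytes for 251. Among all 5676 genes tested with a higher mean in pre-RPMs than in monocytes, the shares were 35.55%, 17.88%, and 46.56%, against 32.55%, 28.35%, and 39.1% of the rises. Of the 982 falls, 456 were lower still in RPMs, 343 lay between, and 183 were at or above monocytes. These were 46.44%, 34.93%, and 18.64% of the falls, against 43.6%, 21.57%, and 34.83% of the 5415 genes tested with a lower mean in pre-RPMs than in monocytes. *Spic*, *Axl*, *Hmox1*, and *Ccr3* were among those that went on upward, and *Ccr2*, *Mefv*, *F5*, and *Cd93* among those that fell back below monocytes, to means of 7.20, 2.19, 1.88, and 1.59 CPM in RPMs. These means are given with no test.

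In libraries labelled *Il1rl1*-/-, which share no sample with the WT libraries, 674 of 11960 genes (5.64%) rose and 1119 (9.36%) fell between the same cell types. Of the WT rises, 334 were also called there, 52.0% of the 642 and 49.6% of the 674, and 637 of 642 had the same sign. Of the WT falls, 725 were called there, 73.8% of the 982 and 64.8% of the 1119, and 976 of 982 had the same sign. No gene was called in opposite directions. For the 10 largest rises the sign was the same for 10 and the call for 9, *Gm1673* being the exception, and for the 10 largest falls both were the same for 10. *Spic* had a log2 fold change of 2.09 there (edgeR's adjusted p = 0.000285), *Ccr3* of 2.28 (adjusted p = 0.00183), and *Prf1* of -5.57 (adjusted p = 1.7e-06). *Hmox1* (1.11, adjusted p = 0.0897), *C1qa* (0.21, adjusted p = 0.853), and *Hbb-bs* (1.26, adjusted p = 0.549) did not pass in those libraries.

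A test of whether the change differed between the labels, as an interaction in 1 edgeR fit of the 16 libraries, called 0 of 11960 genes at an adjusted p under 0.05 (smallest adjusted p = 0.99998), and 454 genes had an unadjusted p under 0.05. Fitting every gene with at least 1 count gave 78 genes. Among the 20 largest rises and falls the lowest unadjusted interaction p was 0.0939. A miss of the threshold does not show that the changes are alike.

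**Figure D5:**
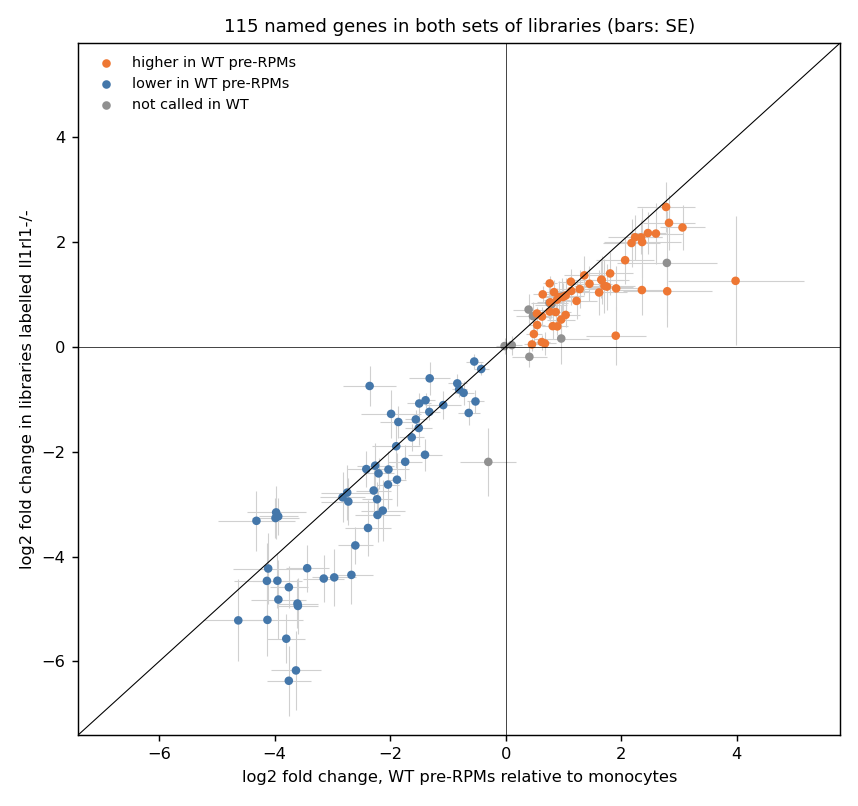
Log2 fold change from monocytes to pre-RPMs of the 115 named genes that were tested, in WT libraries (x axis) and in libraries labelled *Il1rl1*-/- (y axis), with SE bars and the line of equal change. Genes higher in WT pre-RPMs are orange, lower are blue, and not called are grey, and *Gata2* lies at -0.30 in WT and -2.20 in the other libraries.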

How the data were processed

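The authors sorted the cells into lysis buffer, froze them, and made stranded total RNA libraries with a SMARTer pico kit. Reads were trimmed with cutadapt (2.8 in the submitters' processing notes) and aligned with STAR 2.5.1, and the deposited counts per gene were made with featureCounts 1.6.2 on the Ensembl 95 annotation of GRCm38, per the file headers. The deposited values are whole-number counts, not normalized, for 54735 genes in each library, 4212726 to 6559454 in total, a depth that limits the precision for genes of few reads.

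Counts were normalized by TMM, filtered by group, and tested with edgeR 4.0.16 (quasi-likelihood, R 4.3.3), with Benjamini-Hochberg adjustment over all genes tested and a threshold of 0.05. SE is the standard error of the log2 fold change, derived from the test. In simulated counts for 11091 genes, 104 of 200 genes changed 2-fold and 180 of 200 changed 4-fold were recovered, with 12 and 5 false calls (10.3% and 2.7% of the calls). The simulation drew each gene independently, without differences between mice that are shared across genes. These rates therefore need not hold for the calls above. CPM were taken on TMM-scaled totals. Alternatives were RLE and upper quartile factors, other count filters, removal of *Gm42418* and mitochondrial genes, the mouse as a block, DESeq2 1.42.0, all 24 libraries in 1 fit, and each library left out.

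Each library came from 1 mouse and each mouse gave every cell type, so same-numbered libraries are paired. The main fit did not use this pairing, and the fit with the mouse as a block did. In the WT comparison, 128 genes were called only without the block and 435 only with it. The deviations of the pairs from their group means correlated at -0.04, 0.11, 0.14, and 0.10 across genes. Between libraries of different mice these correlations ran from -0.136 to 0.157. Genes were named by a rule: the 10 largest rises and the 10 largest falls, taken from called genes with a mean log2 CPM of 1 or more and no overlap of the groups, a set of known genes, and up to 3 called members of each list per direction, and other list members are given as examples. Members and lists were chosen with earlier results of these data known. Promoters were RefSeq sequences of GRCm38.p6, matched for 8130 of the 11091 genes tested. Some list members are not reported here by name, and chromatin libraries were not analysed here. Figures were drawn with matplotlib 3.10.9.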

Additional observations from a re-analysis of the deposited data

Results flagged for a closer look

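Of 306 groups of 4 libraries examined, 7 held a library far from the other 3, where chance alone gives about 1 in 20 groups. In WT monocytes, *Itgam* was low in mouse 2 (5.87 log2 CPM, the others between 6.29 and 6.37), *Gimap5* was low in mouse 3 (3.55, the others between 4.996 and 5.24), *Iglv1* was low in mouse 4 (3.26, the others between 4.01 and 4.07), and *Rpl35a* was low in mouse 1 (4.16, the others between 4.54 and 4.57). In WT pre-RPMs, *Ifit3* was low in mouse 1 (2.81 log2 CPM, the others between 3.39 and 3.45), *Rps9* was high in mouse 2 (9.34, the others between 9.27 and 9.28), and *Zbtb46* was high in mouse 2 (2.20, the others between 1.23 and 1.34).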

How the results depend on the processing

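The main counts of 642 genes higher and 982 lower were 944 and 987 with the replicate block, and 801 and 1106 with DESeq2. They were 1237 and 1359 for every gene with at least 1 count, and 1347 and 1523 when 1 fit held all 24 libraries. Leaving out 1 library gave between 190 and 1503 genes higher and between 561 and 1445 lower. At the stricter thresholds the main counts of 35 and 361 became 305 and 789 for every gene with at least 1 count, 18 and 199 for at least 10 counts in every library, 90 and 414 with the replicate block, 149 and 545 with DESeq2, and 220 and 552 with all 24 libraries. They ran from 7 to 405 and from 160 to 636 with 1 library left out. The interaction called 0 genes in the main fit, 78 with every gene of at least 1 count, and 0 with each library left out. Of the named genes, the block lost *Abca1* (adjusted p = 0.0667), *Hk1* (0.0653), *Ndufb3* (0.0638), *Rpl34* (0.0534), *Pycard* (0.0614), and *Sdhc* (0.0542), gained *Bach1*, *Csf1r*, and *Cx3cr1*, and changed no other call. Estimates near 0 changed sign: *Itgam* (-0.02) ranged from -0.12 to 0.071, and was 0.01 without the monocytes of mouse 1 or 3, 0.04 without those of mouse 4, 0.071 without the pre-RPMs of mouse 2, and 0.03 without those of mouse 4, *Gata2* ranged from -0.80 to 0.12, the latter without the monocytes of mouse 1, and *Ly6c2* ranged from -0.018, without the pre-RPMs of mouse 3, to 0.20. The causes were not tested. RLE and upper quartile factors kept the call of 113 and 114 of 115 named genes.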
